A study of Mus musculus with 12 samples.

Results

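Immediate early genes are the first genes that a stimulus switches on, without the need for new protein, and in neurons the stimulus is synaptic activity. Calcium entry activates kinases that act on the transcription factors CREB and SRF, which already sit on DNA, and the messages that follow are short-lived, so that their amount in brain tissue tracks recent firing. Most of the products are themselves transcription factors that switch on a later wave of genes, while Arc acts directly at synapses. The genes described here are Arc, Egr1, Egr2, Egr4, Fos, Fosb, Junb, Npas4, Nr4a1 and Ier2, taken by symbol from the deposited count table, in which all 10 of 10 were found among 16482 genes. They were listed by name and role and not by a threshold on measured values, but with earlier results of these data known. Counts of members set beside the share over all genes are therefore descriptions.

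The study measured RNA from the brains of C57BL/6 mice. Conduritol B epoxide (CBE) inactivates acid beta-glucosidase, the lysosomal enzyme that fails in Gaucher disease, and GZ-667161 is an inhibitor of glucosylceramide synthase, the enzyme that makes the lipid which then accumulates. Brains given CBE+GZ-667161 numbered 4, all of postnatal day 40 (replicates 2 to 5). Brains given CBE alone numbered 4, with replicates 4 and 6 taken at day 40 and replicates 2 and 3 at day 34. Brains given only PBS, the saline control, numbered 4, all of day 40 (replicates 2 to 5). All mice were of that strain, and the labels name no transgene, mutation or dose. Because the CBE group mixed ages, and no PBS sample of day 34 was present, each member's comparison of CBE with PBS is given for all 4 CBE samples and for each age. The labels do not say whether the samples of a group came from separate mice, so a p-value here reflects the variation among these samples alone, part of which may be technical.

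The sequencing libraries followed MARS-seq in bulk, which reads tags near the 3' end of each message, and held 1753626 to 6499257 counts on genes. Levels are CPM, a gene's count brought to a common library size after scaling by the trimmed mean of M-values (TMM). A gene was called changed at a Benjamini-Hochberg adjusted p under 0.05 in edgeR's quasi-likelihood test, adjusted over all genes tested. The tissue label is whole brain, and which regions the samples held was not tested. Of 5 cerebellar markers listed, 3 were in the count table. Pcp2 had at most 3.23 CPM, Cbln1 7.23 to 35.5 CPM and Calb2 19.9 to 75.7 CPM. The brainstem and thalamic glutamate transporter Slc17a6 had 1.08 to 7.38 CPM, while the forebrain gene Neurod6 had 49.7 to 144 CPM. The summed level of striatal markers was far above that of the rest of its group in 1 library of each group, at 988 CPM in CBE+GZ-667161 replicate 3, 1377 CPM in CBE replicate 6 and 904 CPM in PBS replicate 3. Xist was at 7.96 to 25.7 CPM in 5 libraries (3 of CBE+GZ-667161 and 2 of PBS) and at most 0.555 CPM in the other 7, which include all 4 of CBE. Genes of the Y chromosome summed to 0 or 1 count in those 5 libraries and to 24 to 84 counts in the other 7. By these genes all 4 CBE libraries read as male, while CBE+GZ-667161 and PBS held both sexes. In bulk tissue, fewer cells of a type and less RNA per cell cannot be told apart.

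Promoters of 7 of the 10 genes were matched in RefSeq's table for build GRCm38.p6, as windows of 300 bases that run from 250 bases before to 50 bases after each start. Arc, Egr1 and Ier2 had no entry. The windows of 6 genes are shown because they carry the short element by which CREB is known to bind, TGACG on either strand, here in capitals. They are Egr2 (chr10:67537619-67537918, plus strand), Egr4 (chr6:85513540-85513839, minus), Fos (chr12:85473640-85473939, plus), Fosb (chr7:19309996-19310295, minus), Npas4 (chr19:4989922-4990221, minus) and Nr4a1 (chr15:101266596-101266895, plus), each printed 5' to 3' on the gene's strand. In Egr2 the capitals also mark the CArG box, the element bound by SRF.
Egr2: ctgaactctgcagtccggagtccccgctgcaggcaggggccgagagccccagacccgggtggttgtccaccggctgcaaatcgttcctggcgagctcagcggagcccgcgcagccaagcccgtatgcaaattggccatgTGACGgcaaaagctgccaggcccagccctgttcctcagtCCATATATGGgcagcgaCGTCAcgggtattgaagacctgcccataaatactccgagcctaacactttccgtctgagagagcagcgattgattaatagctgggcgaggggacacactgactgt
Egr4: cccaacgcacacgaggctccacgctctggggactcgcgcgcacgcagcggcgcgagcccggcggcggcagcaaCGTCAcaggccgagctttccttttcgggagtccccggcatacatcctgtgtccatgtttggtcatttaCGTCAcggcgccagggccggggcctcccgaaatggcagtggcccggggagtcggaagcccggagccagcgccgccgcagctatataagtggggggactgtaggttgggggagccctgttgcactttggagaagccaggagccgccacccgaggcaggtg
Fos: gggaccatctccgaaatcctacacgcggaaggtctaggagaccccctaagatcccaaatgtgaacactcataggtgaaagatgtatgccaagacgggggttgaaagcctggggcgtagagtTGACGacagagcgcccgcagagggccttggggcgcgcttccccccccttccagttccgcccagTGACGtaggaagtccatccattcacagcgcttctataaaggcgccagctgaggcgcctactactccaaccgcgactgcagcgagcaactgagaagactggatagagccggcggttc
Fosb: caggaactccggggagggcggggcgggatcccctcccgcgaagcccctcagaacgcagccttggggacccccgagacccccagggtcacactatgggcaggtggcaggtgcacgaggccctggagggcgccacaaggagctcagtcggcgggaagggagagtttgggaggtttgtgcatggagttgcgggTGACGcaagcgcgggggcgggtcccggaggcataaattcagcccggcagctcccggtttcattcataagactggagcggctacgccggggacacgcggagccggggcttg
Npas4: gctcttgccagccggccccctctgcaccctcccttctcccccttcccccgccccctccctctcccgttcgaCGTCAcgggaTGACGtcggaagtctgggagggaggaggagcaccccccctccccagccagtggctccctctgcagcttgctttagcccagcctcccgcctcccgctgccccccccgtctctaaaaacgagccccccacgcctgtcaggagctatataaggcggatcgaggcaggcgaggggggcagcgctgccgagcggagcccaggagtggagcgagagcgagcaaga
Nr4a1: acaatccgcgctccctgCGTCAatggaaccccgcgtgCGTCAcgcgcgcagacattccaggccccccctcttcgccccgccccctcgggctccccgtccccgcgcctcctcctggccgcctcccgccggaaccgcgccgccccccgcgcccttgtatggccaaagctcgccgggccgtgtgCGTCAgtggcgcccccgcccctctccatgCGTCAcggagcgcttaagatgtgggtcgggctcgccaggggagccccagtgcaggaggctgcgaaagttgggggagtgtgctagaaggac
TGACG, on either strand, stood in a window of 7 of the 7 matched genes (the 6 shown and Junb), against 23.0% of all 26994 genes with a window. The 5 windows of Egr2 overlap in part, and 3 of them held it. The CArG box was found in 4 of the 5 Egr2 windows and in no other matched gene, against 1.81% of genes. TATAAA, searched on the gene's strand only, was found in Fos and Junb, against 9.78% of genes. The full TGACGTCA, which contains TGACG, the AP-1 element TGANTCA and the EGR element GCGTGGGCG, each searched on both strands, were in none of the 7 genes' windows, against 2.03%, 8.98% and 0.708% of genes. These are matches of letters in a short window and not measured binding.

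At day 40, 6 of the 10 genes fell in CBE brains: the synaptic effector Arc, the zinc-finger factors Egr1, Egr2 and Egr4, the AP-1 subunit Fosb and the nuclear receptor Nr4a1. Their CBE levels were 13.5% (Arc) to 34.0% (Nr4a1) of the PBS level. Fos, Junb, Npas4 and Ier2 did not pass the test. Of the 13372 genes tested, 6.08% were called lower in this comparison. The median log2 fold change was -1.57 over the 10 genes and -0.02 over all genes tested. In CBE+GZ-667161 brains Fosb alone was called lower than in PBS brains, and Arc alone was called higher than in CBE brains of day 40. The 10 genes summed to 488 CPM in CBE replicate 4 and 875 CPM in CBE replicate 6. Both of these samples lay below all PBS samples for the 6 genes, as they did for 18.3% of the genes tested. Without replicate 4, which leaves 1 sample in the group, the log2 differences of the 6 were -2.32 (Arc) to -1.15 (Nr4a1), and Arc alone was still called.

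**Figure D1:**
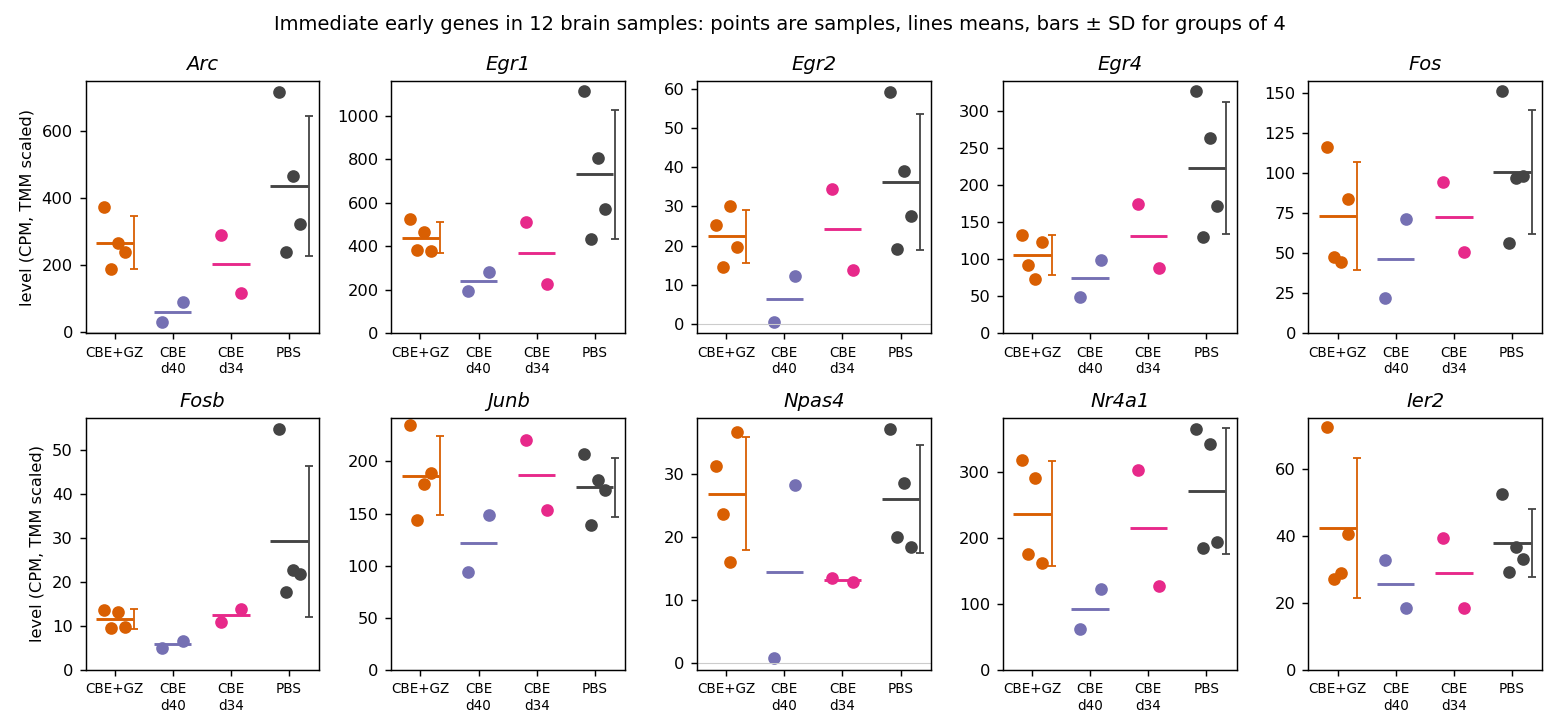
Level of each gene (CPM, TMM scaled, linear axes) in the 12 samples, by group, with CBE split by age (d40, day 40; d34, day 34). Points are samples, horizontal lines are group means, and bars are ± SD for the groups of 4. For Arc, Egr1, Egr2, Egr4, Fosb and Nr4a1 both CBE samples of day 40 lie below all 4 PBS samples, as for 18.3% of the genes tested.

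Arc codes for a cytoskeleton-associated protein that removes AMPA receptors from synapses, and its gene lies on chromosome 15 (mm10, 74669083 to 74672570, minus strand). Arc had 372, 186, 265 and 237 CPM in CBE+GZ-667161 replicates 2 to 5, 29.8 and 86.8 CPM in the CBE samples of day 40, 288 and 114 CPM in those of day 34, and 714, 237, 463 and 321 CPM in PBS replicates 2 to 5. Both CBE samples of day 40 lay below every other sample of the study. Arc averaged 58.3 ± 40.3 CPM in CBE brains of day 40 (SD, n = 2) and 434 ± 208 CPM in PBS brains (SD, n = 4), and fell by 2.89 ± 0.51 on the log2 scale (SE, adjusted p = 0.0016). At day 34 the log2 difference from PBS was -1.09 ± 0.46 (adjusted p = 0.22). Over all 4 CBE samples, whose range overlapped that of PBS, Arc fell by 1.76 ± 0.47 (adjusted p = 0.022), and this call was lost without PBS replicate 2 (adjusted p = 0.089) or CBE replicate 6 (adjusted p = 0.079).

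Egr1 (also called Zif268) is widely used as a marker of neuronal activity, and its gene lies on chromosome 18 (34859823 to 34864984, plus strand). Egr1 had 526, 381, 466 and 378 CPM in CBE+GZ-667161 replicates 2 to 5, 193 and 281 CPM in the CBE samples of day 40, 510 and 223 CPM in those of day 34, and 1113, 434, 805 and 569 CPM in PBS replicates 2 to 5. The 2 CBE samples of day 40 and 1 of day 34 were the lowest of the 12. Egr1 fell by 1.62 ± 0.35 on the log2 scale in CBE brains of day 40 (adjusted p = 0.0062) and by 1.28 ± 0.29 over all CBE samples (adjusted p = 0.0078). At day 34 the log2 difference was -0.97 ± 0.34 (adjusted p = 0.13).

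Egr2 (Krox20), a factor also required for myelination by Schwann cells, lies on chromosome 10 (67535475 to 67542188, plus strand). Egr2 had 25.2, 14.5, 30.1 and 19.6 CPM in CBE+GZ-667161 replicates 2 to 5, 0.700 and 12.3 CPM in the CBE samples of day 40, 34.5 and 13.9 CPM in those of day 34, and 59.0, 19.1, 39.0 and 27.5 CPM in PBS replicates 2 to 5. The lowest value rests on 2 counts in CBE replicate 4, for which the exact 95% Poisson interval is 0.0848 to 2.53 CPM and covers counting error only. Egr2 fell by 2.44 ± 0.64 on the log2 scale in CBE brains of day 40 (adjusted p = 0.018), against a difference of -1.54 without replicate 4 (adjusted p = 0.17). Over all CBE samples the log2 difference of -1.30 ± 0.54 did not pass (adjusted p = 0.14), nor did that of -0.54 at day 34 (adjusted p = 0.68).

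Egr4, another zinc-finger factor of this family, lies on chromosome 6 (85511121 to 85513589, minus strand). Egr4 had 132, 92.5, 73.0 and 123 CPM in CBE+GZ-667161 replicates 2 to 5, 48.7 and 99.0 CPM in the CBE samples of day 40, 175 and 87.8 CPM in those of day 34, and 326, 129, 263 and 171 CPM in PBS replicates 2 to 5. All but 2 of the 8 CBE+GZ-667161 and CBE samples lay below the lowest PBS sample. Egr4 fell by 1.59 ± 0.39 on the log2 scale in CBE brains of day 40 (adjusted p = 0.013) and by 1.13 ± 0.33 over all CBE samples (adjusted p = 0.034). CBE brains of day 34 differed by -0.74 ± 0.38 (adjusted p = 0.34). The call over all CBE samples was lost in 5 of the 8 fits that left out 1 sample, with adjusted p up to 0.14.

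Fos and Fosb are subunits of AP-1, a factor formed with a partner of the Jun family. Fosb, on chromosome 7 (19302696 to 19310051, minus strand), had 13.6, 9.53, 13.2 and 9.80 CPM in CBE+GZ-667161 replicates 2 to 5, 4.90 and 6.62 CPM in the CBE samples of day 40, 10.8 and 13.9 CPM in those of day 34, and 54.8, 17.7, 22.6 and 21.8 CPM in PBS replicates 2 to 5. Every PBS sample lay above every CBE and CBE+GZ-667161 sample. No other member separated in this way from PBS over all 4 CBE samples, where 7% of the 12623 genes tested were separate and lower. Fosb fell by 2.33 ± 0.45 on the log2 scale in CBE brains of day 40 (adjusted p = 0.0028) and by 1.75 ± 0.37 over all CBE samples (adjusted p = 0.0051). At day 34 the log2 difference was -1.22 ± 0.43 (adjusted p = 0.13). PBS replicate 2 stood far above the other PBS samples, and without it the fall at day 40 was 1.84 on the log2 scale (adjusted p = 0.001).

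Fos lies on chromosome 12 (85473890 to 85477273, plus strand). Fos had 117, 47.4, 44.8 and 84.2 CPM in CBE+GZ-667161 replicates 2 to 5, 22.1 and 71.2 CPM in the CBE samples of day 40, 94.3 and 50.5 CPM in those of day 34, and 151, 56.6, 97.2 and 98.6 CPM in PBS replicates 2 to 5. The groups overlapped, since CBE replicate 6 lay above PBS replicate 3. The log2 difference at day 40 was -1.11 ± 0.48 (adjusted p = 0.14), and over all CBE samples it was -0.77 (adjusted p = 0.22). CBE brains of day 34 differed by -0.46 (adjusted p = 0.68).

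Junb, a Jun family partner in AP-1, lies on chromosome 8 (84974484 to 84978718, minus strand). Junb had 235, 144, 178 and 189 CPM in CBE+GZ-667161 replicates 2 to 5, 93.8 and 149 CPM in the CBE samples of day 40, 220 and 153 CPM in those of day 34, and 207, 138.5, 183 and 173 CPM in PBS replicates 2 to 5. CBE replicate 4 was below the other 11 samples, which lay between 138.5 and 235 CPM. The log2 difference was -0.53 ± 0.22 at day 40 (adjusted p = 0.13), 0.11 at day 34 (adjusted p = 0.85) and -0.19 over all CBE samples (adjusted p = 0.62). The last 351 bases of Junb overlap Prdx2 on the opposite strand, and the sources used here do not say whether counting used the strand, so the Junb counts are uncertain. Prdx2 itself differed by -0.16 ± 0.12 on the log2 scale between CBE brains of day 40 and PBS brains (adjusted p = 0.4).

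Npas4, a neuronal transcription factor that responds selectively to calcium entry, lies on chromosome 19 (4984355 to 4990316, minus strand). Npas4 had 31.1, 23.6, 15.9 and 36.5 CPM in CBE+GZ-667161 replicates 2 to 5, 0.700 and 28.1 CPM in the CBE samples of day 40, 13.5 and 12.8 CPM in those of day 34, and 37.0, 19.998, 28.5 and 18.3 CPM in PBS replicates 2 to 5. The CBE samples of day 40 thus lay at opposite ends, with 2 counts in replicate 4 and a level among those of PBS in replicate 6. The log2 difference at day 40 was -0.81 ± 0.62 (adjusted p = 0.43), and it was 0.14 without replicate 4. At day 34 both samples lay below all PBS samples, as 14.4% of the genes tested did, but the log2 difference of -0.94 did not pass (adjusted p = 0.53). Nor did that of -0.88 over all CBE samples (adjusted p = 0.29).

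Nr4a1 (Nur77) is an orphan nuclear receptor that immune cells also induce, and its gene lies on chromosome 15 (101254269 to 101274795, plus strand). Nr4a1 had 318, 175, 292 and 162 CPM in CBE+GZ-667161 replicates 2 to 5, 61.6 and 122 CPM in the CBE samples of day 40, 302 and 127.2 CPM in those of day 34, and 365, 184, 342 and 194 CPM in PBS replicates 2 to 5. The CBE samples of day 40 were the lowest of all. Nr4a1 fell by 1.56 ± 0.41 on the log2 scale in CBE brains of day 40 (adjusted p = 0.018), whereas the difference was -0.31 at day 34 and -0.83 over all CBE samples (adjusted p = 0.17), neither of which passed.

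Ier2, an early-response gene also induced by growth factors, lies on chromosome 8 (84661331 to 84662852, minus strand). Ier2 had 72.7, 27.3, 29.1 and 40.5 CPM in CBE+GZ-667161 replicates 2 to 5, 32.9 and 18.5 CPM in the CBE samples of day 40, 39.3 and 18.3 CPM in those of day 34, and 52.7, 29.4, 36.9 and 33.1 CPM in PBS replicates 2 to 5. It was the only member for which CBE replicate 4 was not the lowest of the 12 samples. The log2 difference at day 40 was -0.57 ± 0.40 (adjusted p = 0.38). It was -0.37 at day 34 (adjusted p = 0.71) and -0.48 over all CBE samples (adjusted p = 0.38).

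Over the 10 genes, 4 were called lower in all CBE samples against PBS, namely Arc, Egr1, Egr4 and Fosb, where 4.04% of 12623 genes tested were called lower, and the median log2 fold change was -1.003. Without PBS replicate 2 or CBE replicate 6 the number was 2. Egr1 and Fosb kept the call in each of the 8 fits that left out 1 sample. At day 40 the 6 genes called lower were also the 6 whose CBE samples all lay below all PBS samples, as 18.3% of the genes tested did. The number of members called lower at day 40 was 1 without CBE replicate 4, 8 without CBE replicate 6, and 6 when any of the PBS samples was left out. Without replicate 4 the group is 1 sample, which the fit assumes to vary like the other groups, and Arc still differed by -2.32 on the log2 scale (adjusted p = 0.036), while Fosb did not pass at -2.13 (adjusted p = 0.053).

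No member was called at day 34, by edgeR or by DESeq2, where 0.867% of the genes tested were called lower and 5.04% higher. At an unadjusted p under 0.05, which 17.4% of the genes tested reached, 3 members were lower by edgeR and 2 by DESeq2. Egr1 was called at day 34 without PBS replicate 3 (adjusted p = 0.042) or CBE replicate 2 (adjusted p = 0.036). CBE brains of day 40 set directly against those of day 34 gave no called member either by edgeR or by DESeq2, with 0.389% of the genes tested called lower and 0.224% higher. By edgeR 4 members passed an unadjusted p of 0.05, as did 15.1% of the genes tested. The largest of those 4 differences on the log2 scale were -1.90 for Egr2 (adjusted p = 0.24) and -1.80 ± 0.54 for Arc (adjusted p = 0.13). A difference between the ages was therefore not shown for any member.

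**Figure D2:**
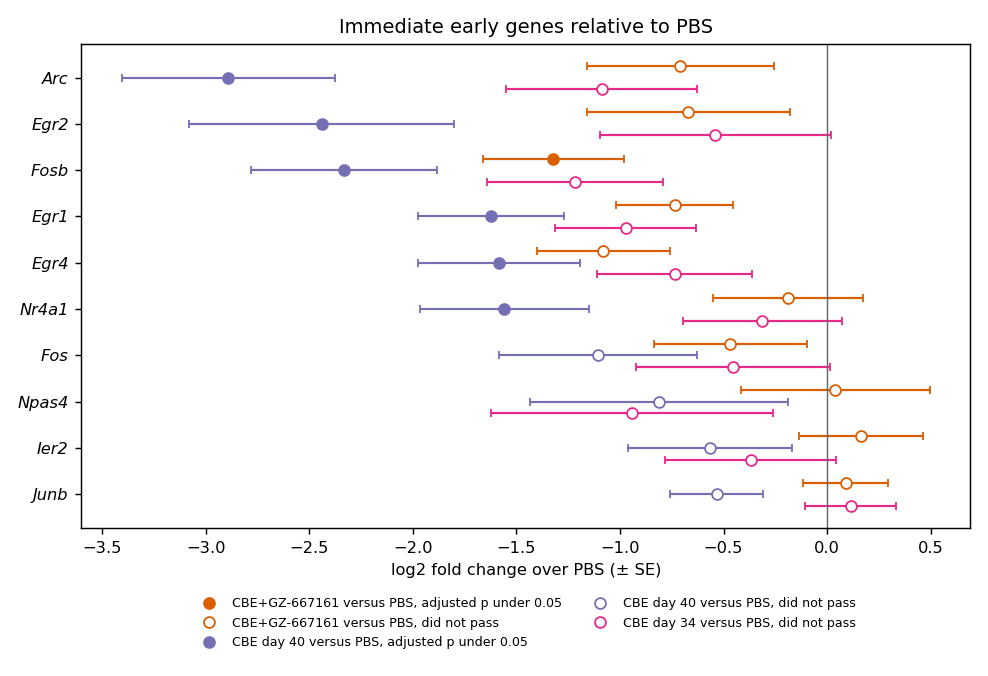
Log2 fold change over PBS with its standard error for each gene, in CBE+GZ-667161 samples, CBE samples of day 40 and CBE samples of day 34. Filled points passed an adjusted p of 0.05: 6 genes in CBE at day 40, Fosb in CBE+GZ-667161 and none at day 34.

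In CBE+GZ-667161 brains, 1 of the 10 genes was called lower than in PBS brains, where 0.333% of the genes tested were called lower. It was also the 1 member whose groups did not overlap, as 3.12% of the genes tested did not with CBE+GZ-667161 the lower. Fosb averaged 11.5 ± 2.2 CPM in CBE+GZ-667161 brains and 29.2 ± 17.2 CPM in PBS brains (SD, n = 4 each), and fell by 1.32 ± 0.34 (log2, adjusted p = 0.039). The call was lost without PBS replicate 2 (adjusted p = 0.2) or PBS replicate 4 (adjusted p = 0.052), and without any of CBE+GZ-667161 replicates 2 (adjusted p = 0.056), 3 (adjusted p = 0.13), 4 (adjusted p = 0.088) or 5 (adjusted p = 0.11). Egr4 averaged 105 ± 27 CPM in CBE+GZ-667161 brains and 222 ± 89 CPM in PBS brains, a log2 difference of -1.08 ± 0.32 that did not pass (adjusted p = 0.088) except without PBS replicate 3 (adjusted p = 0.038). Egr1 and Arc differed by -0.74 (adjusted p = 0.24) and -0.71 (adjusted p = 0.58) on the log2 scale. Fos, Egr2, Nr4a1, Npas4, Junb and Ier2 lay between -0.67 (Egr2) and 0.16 (Ier2).

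CBE+GZ-667161 and CBE brains share the PBS samples as their control, so their differences from PBS are given side by side and are not 2 separate pieces of evidence. For Arc the log2 difference from PBS was -0.71 in CBE+GZ-667161 brains and -2.89 in CBE brains of day 40. For Fosb it was -1.32 and -2.33, for Egr4 -1.08 and -1.59, and for Nr4a1 -0.19 and -1.56, in the same order of groups. Set directly against all CBE samples, no member was called in CBE+GZ-667161 brains by edgeR or by DESeq2, where 0.444% of the genes tested were called higher. By edgeR Arc alone passed an unadjusted p of 0.05, as did 16.5% of the genes tested, at a log2 difference of 1.05 ± 0.46 (adjusted p = 0.27), and it was called without CBE replicate 2 (adjusted p = 0.046).

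The CBE samples of day 40 match the CBE+GZ-667161 samples in age but not in sex, since all CBE libraries read as male. Against the age-matched CBE samples of day 40, Arc was higher in CBE+GZ-667161 brains by 2.18 ± 0.50 on the log2 scale (adjusted p = 0.021), at 265 ± 79 CPM in CBE+GZ-667161 brains (SD, n = 4) and 58.3 ± 40.3 CPM in CBE brains of day 40 (SD, n = 2). It was the 1 member called of 10, where 2.76% of the genes tested were called higher. Without CBE replicate 4 the difference was 1.61 and did not pass (adjusted p = 0.23). All 4 CBE+GZ-667161 samples lay above both CBE samples of day 40 for Arc, Egr1, Egr2, Fosb and Nr4a1, as was so for 15.7% of the genes tested. Nr4a1 differed by 1.36 ± 0.40 (adjusted p = 0.06), Egr2 by 1.77 (adjusted p = 0.12), Fosb by 1.01 (adjusted p = 0.22) and Egr1 by 0.88 (adjusted p = 0.14), none of which passed. Without CBE replicate 6, Egr2 (adjusted p = 0.037) and Npas4 (adjusted p = 0.0089) were called as well, and without CBE+GZ-667161 replicate 5, Nr4a1 (adjusted p = 0.047).

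**Figure D3:**
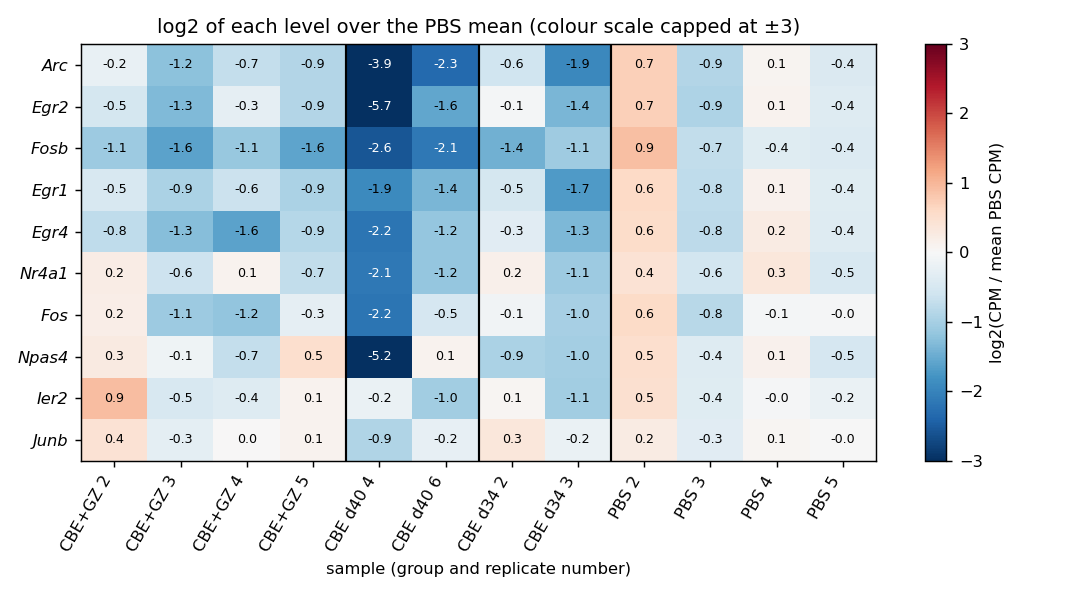
Log2 ratio of each gene's CPM in each sample to the mean of the PBS samples, by gene (rows) and sample (columns, in groups divided by black lines). The colour scale ends at ±3. CBE replicate 4 is the lowest column for 9 of the 10 genes and PBS replicate 2 the highest for 8.

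The genes tended to be high or low together in a sample. Within PBS, replicate 2 was the highest for all 10 genes and replicate 3 the lowest for 9. Within CBE, replicate 2 (day 34) was the highest for 8 genes and replicate 4 (day 40) the lowest for 9. Within CBE+GZ-667161, replicate 2 was the highest for 8 genes, while the lowest values were spread over replicate 3 (5 genes), replicate 4 (3 genes) and replicate 5 (2 genes). Their summed level reached 3081 CPM in PBS replicate 2 and 1267 CPM in PBS replicate 3, so a range of that width was present among samples given PBS alone.

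The spread between samples of 1 group was wide for these genes. The biological coefficient of variation, which edgeR estimates beyond counting error, was 50.5% for Npas4, 44.4% for Egr2, 36.0% for Fos and 35.5% for Arc, against a median of 17.8% over all genes tested. Npas4 lay at the 97.4th percentile and Arc at the 89.8th. Junb was the exception at 18.3%, the 52.4th percentile. Nr4a1, Ier2, Fosb, Egr4 and Egr1 lay between 26.8% (Egr1) and 30.4% (Nr4a1). Fos averaged 46.6 ± 34.7 CPM in CBE brains of day 40 (SD, n = 2) and 101 ± 39 CPM in PBS brains (SD, n = 4), and the samples of the groups overlapped.

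**Figure D4:**
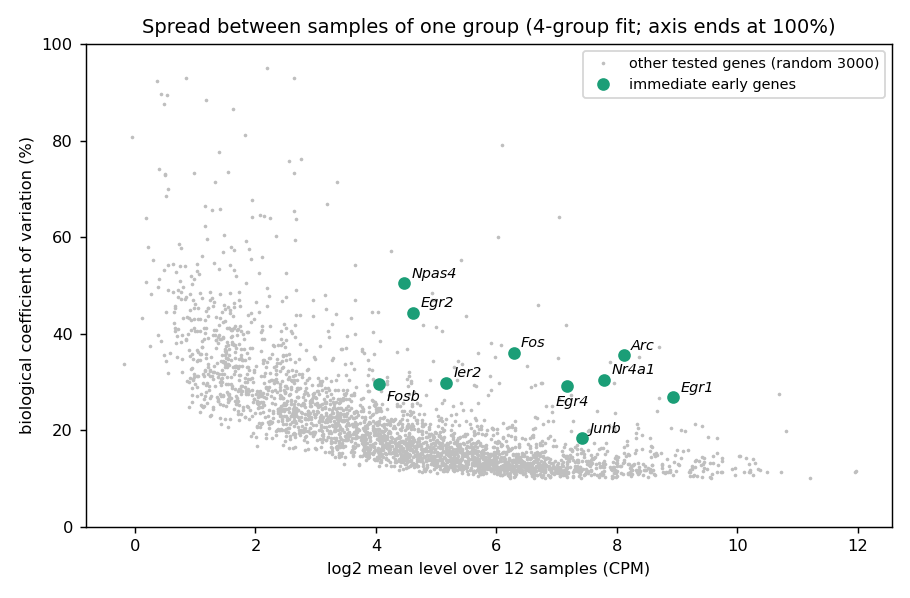
Biological coefficient of variation (percent) against the log2 of the mean level over the 12 samples (CPM), for the 10 genes (labelled) and 3000 other tested genes drawn at random (grey). Npas4 and Egr2 lie highest among the 10, at 50.5% and 44.4%, and Junb lowest at 18.3%.

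Other rapidly induced transcription factors moved in both directions. Of 19 tested, 8 fell and 3 rose in CBE brains of day 40, where 6.08% of all genes tested were called lower and 8.15% higher, with a median log2 fold change of -0.49 against -0.02 over all genes. Fosl2, another AP-1 subunit, averaged 8.38 ± 2.02 CPM in CBE brains of day 40 and 33.5 ± 14.2 CPM in PBS brains and fell by 1.99 ± 0.42 (log2, adjusted p = 0.0047), but did not pass without CBE replicate 6 (-1.76, adjusted p = 0.073). Nr4a3, an orphan receptor of the Nr4a1 family, fell by 1.74 ± 0.36 on that scale (adjusted p = 0.0044). Klf10, a zinc-finger factor, fell by 1.15 ± 0.24 (adjusted p = 0.0045), and Egr3 by 1.09 ± 0.26 (adjusted p = 0.012). Atf3, a factor induced by cell stress and injury, rose by 1.82 ± 0.37 (adjusted p = 0.0041), at 11.2 ± 5.5 CPM in CBE brains of day 40 and 3.11 ± 0.81 CPM in PBS brains. Klf6 also rose, by 0.66 (adjusted p = 0.026). Maff rose by 2.54 ± 0.73 (adjusted p = 0.03), but differed by -0.51 without CBE replicate 4 and did not pass without PBS replicate 2 (adjusted p = 0.069), 4 (adjusted p = 0.053) or 5 (adjusted p = 0.07). With 1 CBE sample left in the group, the differences of the other factors named here kept their direction but some calls were lost. Without CBE replicate 4 these were Klf10 (-0.78, adjusted p = 0.098), Egr3 (-1.19, adjusted p = 0.074), Atf3 (1.22, adjusted p = 0.14) and Klf6 (0.65, adjusted p = 0.14). Without CBE replicate 6 they were Nr4a3 (-1.51, adjusted p = 0.073), Egr3 (-0.99, adjusted p = 0.12) and Klf6 (0.67, adjusted p = 0.13). Klf6 also missed without PBS replicate 4 (adjusted p = 0.057). Over all CBE samples 5 of these factors fell and 2 rose, where 4.04% of all genes tested were called lower and 6.95% higher. At day 34 Atf3 rose by 2.09 on the log2 scale and was the 1 factor called.

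Later and non-transcription-factor genes of the programme were counted likewise. Of 12 delayed activity-regulated genes tested, 5 fell and none rose in CBE brains of day 40, where 6.08% of all genes tested were called lower, with a median log2 fold change of -0.70 against -0.02 over all genes. On the log2 scale, the neurotrophin Bdnf fell by 1.92 ± 0.49 (adjusted p = 0.015), the neuropeptide gene Adcyap1 by 1.68 ± 0.38 (adjusted p = 0.0083), the postsynaptic scaffold Homer1 by 1.18 ± 0.23 (adjusted p = 0.0032), Fbxo33 by 0.77 (adjusted p = 0.026) and Nrn1 by 0.61 (adjusted p = 0.026). With CBE replicate 6 as the only sample of its group, the log2 differences were -2.18 for Bdnf, -1.37 for Adcyap1, -1.13 for Homer1, -0.77 for Nrn1 and -0.61 for Fbxo33, and none passed (adjusted p of 0.052 for Homer1 to 0.24 for Fbxo33). With CBE replicate 4 as the only sample they were -1.69 for Bdnf (adjusted p = 0.14), -0.95 for Fbxo33 (adjusted p = 0.072) and -0.46 for Nrn1 (adjusted p = 0.26), while Adcyap1 and Homer1 passed. Nrn1 and Fbxo33 missed without PBS replicate 4 (adjusted p = 0.071 and 0.053), and Fbxo33 without PBS replicate 2 (adjusted p = 0.057). Counts per gene do not separate the activity-induced short form of Homer1 from the long form. At day 34, where no immediate early gene was called, 4 of the 12 were called lower, namely Adcyap1, Homer1, Scg2 and Vgf, where 0.867% of all genes tested were. Over all CBE samples 7 of the 12 fell, where 4.04% of all genes tested did.

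Of 20 other rapid effectors, such as phosphatases and mRNA-decay factors, the pseudokinase gene Trib1 alone was called lower at day 40, by 0.93 ± 0.30 on the log2 scale (adjusted p = 0.048), a share close to the 6.08% of all genes tested. Trib1 did not pass without CBE replicate 4 (-0.76, adjusted p = 0.31), CBE replicate 6 (-1.12, adjusted p = 0.13), PBS replicate 2 (adjusted p = 0.11) or PBS replicate 4 (adjusted p = 0.072). Of 20 genes of the signalling path to SRF and CREB, the CREB coactivator Crtc2 rose by 0.90 ± 0.17 (adjusted p = 0.002), at 48.7 ± 3.9 CPM in CBE brains of day 40 and 26.2 ± 3.3 CPM in PBS brains, and none fell. That is 1 of 20, below the 8.15% of all genes tested that were called higher. The list's median log2 fold change was 0.11. Over all CBE samples the mRNA-decay factor Zfp36 rose by 1.10 (adjusted p = 0.045), a call that held only without PBS replicate 2 among the 8 fits that left out 1 sample.

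In CBE+GZ-667161 brains against PBS brains, Fosl2 fell by 1.56 (log2, adjusted p = 0.018) and Atf3 rose by 1.34 (adjusted p = 0.024) among the 19 transcription factors, where 3.11% of all genes tested were called higher. Homer1 fell by 0.79 (adjusted p = 0.016) and Nptx2, a synaptic pentraxin, by 0.98 (adjusted p = 0.011) among the 12 delayed genes. Leaving out 1 sample at a time, the call of Atf3 was lost in 6 of 8 fits, that of Homer1 in 4, that of Fosl2 in 3 and that of Nptx2 in 1, with PBS replicate 2 among them for all 4 genes. Adcyap1 was higher in CBE+GZ-667161 brains than in all CBE brains by 1.69 ± 0.34 (adjusted p = 0.026), at 10.1 ± 2.5 CPM in CBE+GZ-667161 brains and 2.95 ± 1.24 CPM in CBE brains (SD, n = 4 each), which did not overlap. It missed the threshold without CBE replicate 4 (adjusted p = 0.08) and without CBE+GZ-667161 replicate 3 (adjusted p = 0.056) or 4 (adjusted p = 0.099). Against CBE brains of day 40, Adcyap1 was higher by 1.42 (adjusted p = 0.043), while Klf6, Crtc2 and the SRF coactivator gene Mkl1 were lower, with log2 differences of -0.67 (adjusted p = 0.046), -0.66 (adjusted p = 0.032) and -0.45 (adjusted p = 0.049), where 3.10% of all genes tested were called lower. With either CBE sample of day 40 left out the remaining one is alone in its group, and none of the 4 passed (adjusted p of 0.1 to 0.32). Their log2 differences, without CBE replicate 4 and then without CBE replicate 6, were 1.11 and 1.84 for Adcyap1, -0.66 and -0.67 for Klf6, -0.58 and -0.73 for Crtc2 and -0.45 and -0.44 for Mkl1.

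**Figure D5:**
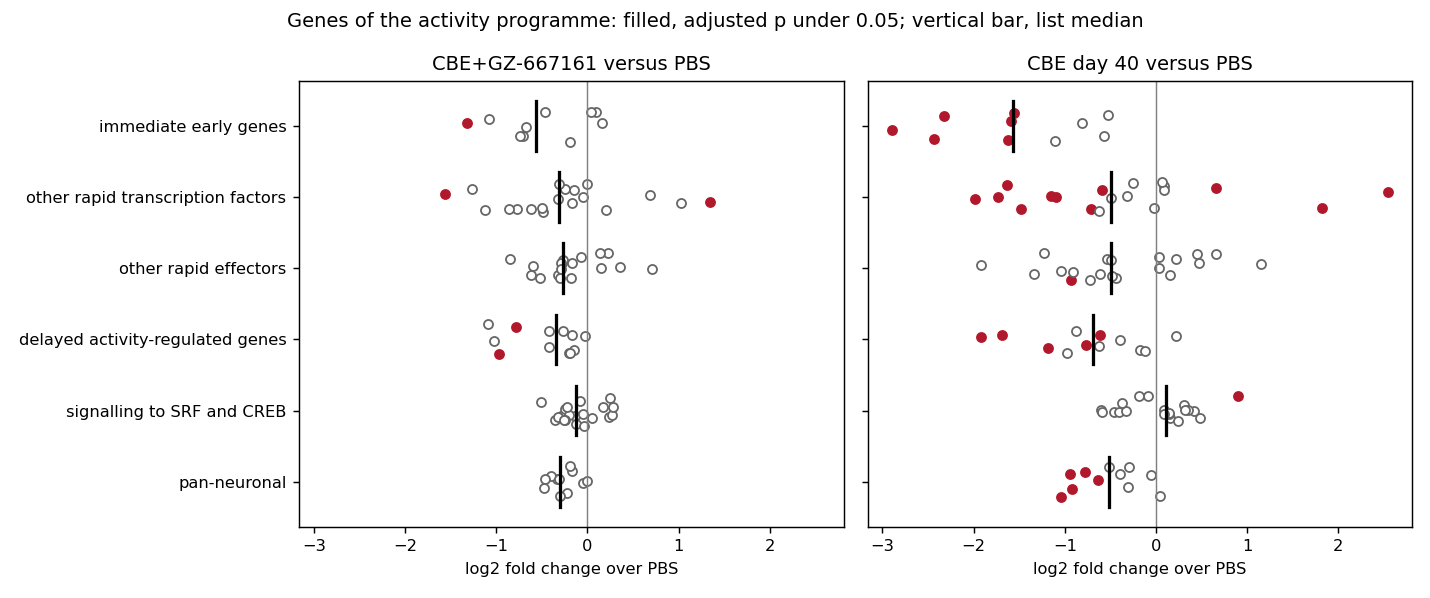
Log2 fold change over PBS of each gene (points) in 6 gene lists, for CBE+GZ-667161 (left) and CBE at day 40 (right). Filled points passed an adjusted p of 0.05 and vertical bars are list medians. The 10 immediate early genes have a median of -0.57 in CBE+GZ-667161 and -1.57 in CBE at day 40.

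Markers of cell types also differed between the groups. The 11 pan-neuronal markers summed to 6241 to 7319 CPM in CBE+GZ-667161 brains and 5474 to 6488 CPM in CBE brains. In PBS brains the sum was 7449 to 7604 CPM. Within CBE it was highest in replicate 4 (6488 CPM), and within PBS it was lowest in replicate 2 (7449 CPM). At day 40, 5 of the 11 were called lower in CBE and none higher, where 6.08% of all genes tested were called lower. Their log2 fold changes ran from -1.04 (Nefl) to 0.05 (Rbfox3), with a median of -0.52, and Snap25 was at -0.06. None of the 11 was at 0 in any sample. With libraries scaled to these markers instead, an alternative chosen after the data were seen, the same 6 members were called lower at day 40. Their log2 differences were -2.58 for Arc (adjusted p = 0.002) to -1.25 for Nr4a1 (adjusted p = 0.032). Among all genes, that scaling also called more at day 40 than TMM did, with the counts given further below. Fosb in CBE+GZ-667161 brains no longer passed with that scaling, at -1.15 (adjusted p = 0.068). Summed microglial markers were at 563 to 734 CPM in CBE+GZ-667161 brains, 590 to 1057 CPM in CBE brains and 352 to 361 CPM in PBS brains. Of these markers, 3 of the 6 were called higher at day 40, where 8.15% of all genes tested were. Summed astrocyte markers were at 2724 to 3036 CPM in CBE+GZ-667161 brains, 3057 to 3488 CPM in CBE brains and 2330 to 2742 CPM in PBS brains. Here too 3 of the 6 were called higher at day 40, against the same 8.15%. Summed oligodendrocyte markers were at 3465 to 7976 CPM in CBE+GZ-667161 brains, 2855 to 5790 CPM in CBE brains and 5541 to 6865 CPM in PBS brains. At day 40 all 6 oligodendrocyte markers lay lower in CBE without overlap, as 18.3% of all genes tested did. Their median log2 fold change was -0.70, and by edgeR none was called. Summed excitatory-neuron markers were at 2082 to 2397 CPM in CBE+GZ-667161 brains, 1955 to 2224 CPM in CBE brains and 2370 to 3184 CPM in PBS brains. At day 40, 2 of these 6 were called lower in CBE, Slc17a7 (-0.52, adjusted p = 0.036) and Neurod6 (-0.88, adjusted p = 0.038), against 6.08% of all genes tested. Neurod6 alone of the 6 was called higher in CBE+GZ-667161 brains than in CBE brains of day 40 (1.13, adjusted p = 0.025), where 2.76% of all genes tested were. Summed inhibitory-neuron markers were at 1186 to 1492 CPM in CBE+GZ-667161 brains, 1227 to 1372 CPM in CBE brains and 1461 to 1731 CPM in PBS brains. The part of the pan-neuronal, glial, excitatory-neuron and inhibitory-neuron markers in the members' values was not tested.

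Region and stress markers also varied. Summed choroid plexus markers were at 528 CPM in CBE replicate 4, the highest of the 12 samples, and at 61.6 CPM in CBE replicate 6. They were at 100 and 134 CPM in the CBE samples of day 34. In CBE+GZ-667161 brains they were at 19.2 to 339 CPM, and in PBS brains at 16.3 to 111 CPM. Their part in the members' values was not tested. The sample with the most striatal RNA was the lowest of its group for 9 genes in PBS and 5 in CBE+GZ-667161. CBE replicate 6, with the most striatal RNA of all, was above CBE replicate 4 for 9 of the 10. With the striatal level as a covariate, also chosen after the data were seen, 5 members were called lower at day 40, and Egr2 missed the threshold (adjusted p = 0.051). The part of striatal RNA in the members' values was not tested beyond this fit. With Xist as a covariate the same 6 members were called, but Fosb no longer passed in CBE+GZ-667161 brains (adjusted p = 0.1). Heat-shock genes summed to 1975 to 2410 CPM in CBE+GZ-667161 brains, 1460 to 1949 CPM in CBE brains and 2298 to 2609 CPM in PBS brains. Hspa8 and Hsph1 were called lower and Hspb1 higher in CBE brains of day 40, and the part of heat-shock genes in the members' values was not tested.

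The genes outside the list whose profile over the 12 samples was closest to the members' mean profile were Ccdc8, Adrb1, Agpat4, Rspo1, Zc3h13, Erbb3, Katnal1 and Mdm2. Their root mean square difference from that profile, with each gene scaled to an SD of 1, was 0.370 (Ccdc8) to 0.428 (Mdm2). Since the points share their libraries, groups and scaling, this is a description over 12 samples.

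In the authors' deposited table, which gives fold changes of PBS over CBE and so with the opposite sign, 4 members passed for CBE and PBS (Arc, Egr1, Egr4 and Fosb). Fosb alone passed for CBE+GZ-667161 and PBS in the authors' deposited table, and none for CBE+GZ-667161 and CBE.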

How the data were processed

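RNA was measured in 12 brain samples with bulk MARS-seq, per the labels' protocols. The authors deposited a table of counts in whole numbers, with no normalization. Their processing notes list the build mm10 and the tools HTSeq, DESeq2, cutadapt and HISAT (0.1.6), without roles. How molecular identifiers, annotation and strand were handled is not stated in what was used here. The authors' normalized signal, each count divided by a factor for its library, was not used further. The authors' deposited table of log2 fold changes and adjusted p-values was used only where named.

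From the counts, 23 entries whose symbol had become a date (0.266% to 0.347% of counts) were dropped, since they name no gene. Genes were filtered with filterByExpr (minimum count 10, minimum total 15), scaled by TMM and tested with edgeR 4.0.16's quasi-likelihood test in R 4.3.3 with all samples in each fit. One fit had the 3 labelled groups (12623 genes) and another had CBE split by age (13372 genes). SE is the log2 fold change over the square root of F. Alternatives were DESeq2 1.42.0, other scaling, no filter, a replicate block, an Xist covariate, only the groups compared, and leaving out each sample. Scaling to pan-neuronal markers and a striatal covariate were added after seeing the data. Scripts were tested on simulated data. Replicates of a group differed by more than sampling noise (chi-square per degree of freedom 3.53 to 13.3).

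The members and gene lists were chosen with earlier results of these data known. All members are named. From each other list, up to 4 called genes with the smallest p in CBE or CBE day 40 against PBS are named, and every called gene where 5 or fewer were called. Of the other genes, the 8 nearest to the members' mean profile (log2 CPM, prior count 2) are named. Gene positions are from the GENCODE M21 annotation of mm10.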

Additional observations from a re-analysis of the deposited data

Results flagged for a closer look

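Fosb in PBS replicate 2, at 54.8 CPM, stood apart from the other 3 PBS samples, and its gap to the nearest of them was 0.866 of the group's range. Of the 30 sets of 4 samples examined, 1 for each gene and group, this was the 1 that did so. Chance gives such a gap in about 1 in 20 sets. PBS replicate 2 was also the highest PBS sample for the other 9 members, without standing apart in this way. Without it, Fosb in CBE+GZ-667161 brains differed from PBS brains by -0.81 on the log2 scale (adjusted p = 0.2).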

How the results depend on the processing

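The 6 members called lower in CBE brains of day 40 were 6 by number with every scaling, filter and tool tried, save 5 with the striatal covariate and 9 with the replicate block. Among all genes, scaling to pan-neuronal markers called 3536 for CBE against PBS (1387 with TMM), 3005 for day 40 (1903), 2477 for day 34 (790), 692 for CBE+GZ-667161 against PBS (435) and 397 for CBE+GZ-667161 against CBE. It turned Fbxo33 (0.17) and Nrn1 (0.035) at day 34 and Mkl1 (0.066) in CBE+GZ-667161 brains to above PBS on the log2 scale, and left no member called in CBE+GZ-667161 against PBS (0, against 1). Without the CBE samples of day 40, CBE against PBS gave 751 genes and 0 members lower, and CBE+GZ-667161 against CBE gave 2 genes, with log2 differences of -0.13 for Egr2, -0.11 for Fosb and -0.028 for Junb. Without those of day 34, CBE+GZ-667161 against CBE gave 692 genes and 2 members higher. DESeq2 called 239 genes for day 40 against day 34 (82 with edgeR) and 478 for CBE+GZ-667161 against CBE. The striatal covariate left 36 genes between the ages. The Xist covariate left 83 genes for CBE+GZ-667161 against CBE, 440 against CBE of day 40 (783 without it), and 0 members lower against PBS. With only the groups compared in the fit, these were 31 genes, 389 genes with 3 members higher, and 2 members lower. The cause of these shifts was not tested.

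Replicate numbers are shared between groups, but 10 same-numbered pairs correlated by -0.08 to 0.24 in their deviations from group means, against -0.27 to 0.42 for 38 other pairs, so pairing was not shown. With a replicate block, genes called were 519 (day 40 against PBS), 9 (between the ages), 82 (CBE+GZ-667161 against CBE) and 83 (against CBE of day 40). Members called were 2 lower at day 34, 3 lower between the ages, 2 lower in CBE+GZ-667161 against PBS and 6 higher against CBE of day 40, and Ier2 at day 40 differed by 0.046 (log2). CBE replicate 6 has no partner, so the blocked day 40 values rest on CBE replicate 4.

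Leaving out 1 sample at a time gave 962 to 1515 genes and 2 to 6 members lower for CBE against PBS, 845 to 1668 and 1 to 8 for day 40, 389 to 739 and 0 to 1 for day 34, 0 to 19 genes between the ages, and 326 to 431 and 0 to 2 for CBE+GZ-667161 against PBS. Members higher were 0 to 1 with 5 to 269 genes for CBE+GZ-667161 against CBE, and 0 to 3 with 93 to 777 genes against CBE of day 40. On the log2 scale, day 40 against PBS ranged from -0.51 to 3.47 for Maff and -5.13 to 0.14 for Npas4, and CBE+GZ-667161 against CBE of day 40 from -0.91 to 0.12 for Atf3, -2.43 to 1.53 for Maff, -0.098 to 5.17 for Npas4 and -0.66 to 0.026 for Nptx2, with 1 end without CBE replicate 4 and the other without replicate 6. Between the ages, Egr1 ranged from -1.10 to 0.092, the high end without CBE replicate 2. Egr2 and Npas4 had 2 counts each in CBE replicate 4, a library of 2995620 counts.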

Other observations

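Replicate 2 was the highest sample for 10 of the 10 genes in PBS, for 8 in CBE and for 8 in CBE+GZ-667161. The 3 libraries differed in age and treatment, and the labels give replicate numbers no meaning beyond a name. CBE replicate 2 was of day 34, so that its place within CBE cannot be told apart from age. Its level was above that of CBE replicate 3, of the same age, for 9 of the 10 genes, Fosb being the exception at 10.8 and 13.9 CPM.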
